A study of Mus musculus with 8 samples.

Results

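The proteasome is the protein complex that degrades most ubiquitin-tagged proteins of the cell. Genes were taken by symbol: every symbol that begins with Psma, Psmb, Psmc, Psmd or Psme followed by a digit, leaving out Psmb8 and Psmb9, the inducible catalytic subunits. The rule found 43 genes among 19752 symbols on the array, and 40 of them entered the tests, out of 20165 tested features. All 40 were well above background on all 8 arrays. The other 3 were not tested: Psma8, an alpha subunit of the testis, and Psmb11, the catalytic subunit of the thymus, were well above background on 0 of 8 arrays, and Psmc3ip, which is a factor of meiotic recombination and no proteasome subunit, on 2. The label of the set as constitutive does not hold for all of the 40 genes. Psmb10 is the third inducible catalytic subunit, Psmd5, Psmd9 and Psmd10 are assembly chaperones, and Psme3ip1 encodes a partner of an activator and matched by its prefix alone.

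The core particle is a barrel of stacked rings. The outer rings are made of alpha subunits, which form the gate, and the inner rings of beta subunits, among which Psmb5, Psmb6 and Psmb7 carry the catalytic sites. The regulatory particle caps the barrel: a base of ATPases (the Psmc genes) and large scaffold subunits unfolds the substrate, and a lid, which holds the deubiquitinase Psmd14, removes its ubiquitin. In liver as in other tissues, the transcription factors NRF1 (gene Nfe2l1) and NRF2 (gene Nfe2l2) can raise proteasome genes together, and interferon exchanges the catalytic beta subunits for Psmb8, Psmb9 and Psmb10.

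Liver RNA of 8 male C57BL/6 mice, purchased at 5 weeks of age, was measured on Agilent 1-colour arrays, 1 animal per array. The 4 groups held 2 mice each: a high-fat diet (HFD, 58% fat) for 3 months, HFD for 9 months, a normal diet (ND, 4.8% fat) for 3 months and ND for 9 months. The series addresses hepatic inflammation under a high-fat diet. All mice shared strain and sex. The labels give separate mice, so the p-values rest on how far 2 mice and their arrays differ.

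Values are log2 processed signals set against the 75th percentile of their own array, called log2 levels here. That percentile lay between 185 and 428 intensity units on the HFD arrays and between 482 and 597 on the ND arrays. The lowest was HFD 9 months replicate 2. It also had the smallest share of spots well above background (40.6%, with 54.1% as the largest share), and 12 of the 40 genes had their lowest value there. All HFD arrays lay on 1 slide and all ND arrays on the other, so diet and slide cannot be told apart. Duration likewise changed together with the row on the slide and, as all mice were purchased at the same age, with the age of the mice. Hepatocyte markers were bright on every array, with a summed linear level of 10 markers of 3350 to 3550 on HFD and 4830 to 5430 on ND at 3 months, and of 3230 to 4720 on HFD and 4450 to 4720 on ND at 9 months. Since whole liver was measured, fewer cells of a type and less RNA per cell cannot be told apart.

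Few proteasome genes passed the test of diet. Over both durations, 4 of 40 genes passed an adjusted p of 0.05 in the HFD against ND comparison, which is 10% of them, while 22.1% of all features passed. The share of all features depended on single arrays: it was 6.85% without ND 3 months replicate 2, 9.85% without ND 3 months replicate 1, 11.4% without ND 9 months replicate 2, 12.7% without HFD 3 months replicate 1 and 14.4% without HFD 9 months replicate 1. The share was 15.1% without ND 9 months replicate 1, 16.6% without HFD 3 months replicate 2 and 27.3% without HFD 9 months replicate 2. Psmd11 was called in all 8 fits. Psmc4 was also called without HFD 3 months replicate 1, and Psmc5 and Psmd10 without HFD 3 months replicate 2. Without HFD 9 months replicate 2, Psmb4, Psmc2 and Psmd10 were also called. Of the 4 genes called with all arrays, 1 was higher on HFD, against 10.3% of all features, and 3 were lower, against 11.8%. The median log2 fold change of the 40 genes was -0.11, that of all features 0.00, and 24 of 40 genes lay below 0 (60%, with 49.7% of all features). The sign of that median depended on the scaling: it was 0.031 with normexp (a model-based background correction, followed by quantile normalization) and 0.032 with the authors' deposited table. Without ND 9 months replicate 1 it was -0.056, and without HFD 9 months replicate 2 it was -0.048. An unadjusted p under 0.05 was reached by 10 genes (25%, with 38.8% of all features). Just 1 of the 40 differed by a log2 fold change of 1 or more in size, the ATPase gene Psmc5, which did not pass the test, whereas 16.6% of all features differed by as much. The genes also varied less between the mice of a group than features in general. The median standard deviation within groups was 0.178 for the proteasome genes, 0.285 for all features and 0.246 for features well above background on all arrays. The spread was uneven: for the proteasome genes the median was 0.126 on HFD and 0.0525 on ND at 3 months. At 9 months it was 0.208 on HFD and 0.128 on ND.

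**Figure D1:**
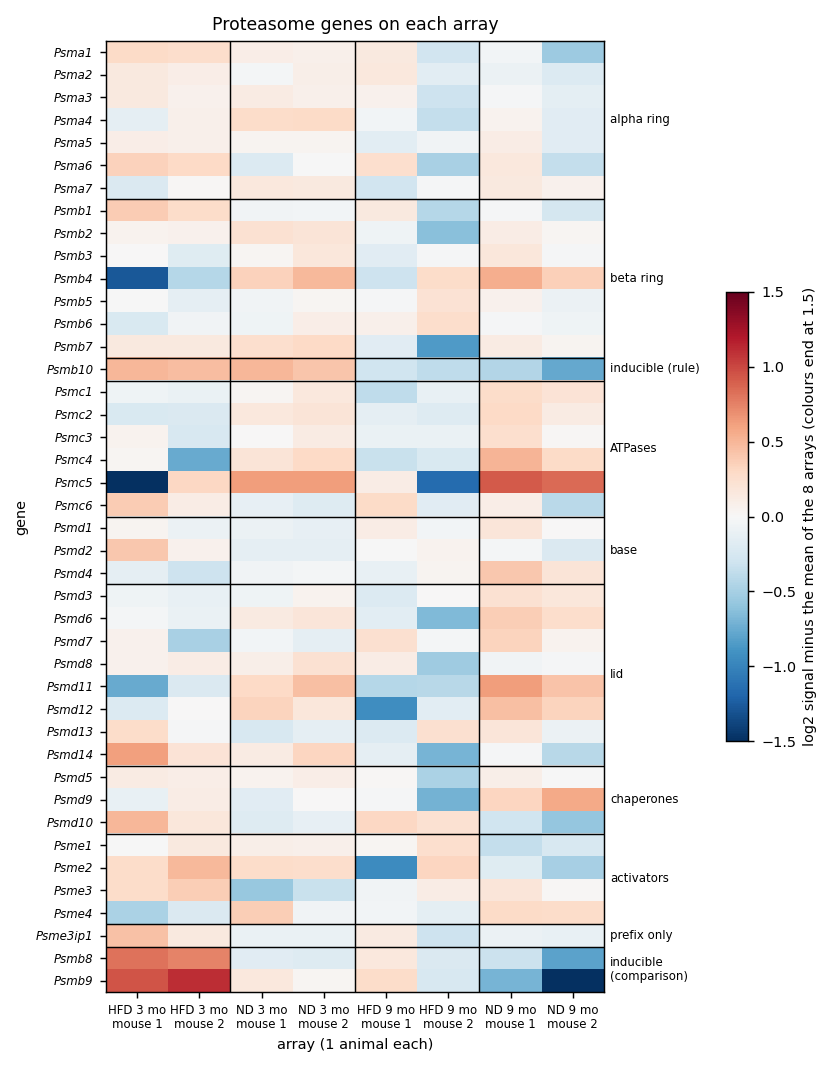
Log2 signal of the 40 proteasome genes, and of Psmb8 and Psmb9 for comparison, on each of the 8 arrays (columns), as the difference from the gene's mean over the arrays (colour, log2, ends at 1.5 in either direction). Most cells are pale. Psmd11 is blue on all HFD arrays. Psmb4 is darkest blue on HFD 3 months replicate 1, and Psmc5 on that array and HFD 9 months replicate 2, but neither gene is blue on every HFD array. Psmb10 is blue in all 4 columns at 9 months, and Psmb9 has its highest values on the HFD arrays at 3 months.

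The 4 genes that passed belong to the regulatory particle and its assembly chaperones, which hold 17 and 3 of the 40 genes. The core gene Psmb4 just missed the threshold. It was called lower in 4 of 10 alternative settings, beside 5 for Psmc2 and 6 for Psmc4, so the shared particle depends on the cut-off. The promoters of the 4 genes are shown because these genes passed, and because the binding sites of the known regulators can be looked for in them. The sequences are those of RefSeq on GRCm38.p6, in the direction of the gene, with 250 bases before the start and 50 after it. Capitals mark CCAAT, the binding box of NF-Y, on either strand, so that ATTGG is its reverse.

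The lid gene Psmd11 (chr11:80428365-80428664, plus strand), the ATPase gene Psmc4 (chr7:28050043-28050342, minus strand), the ATPase gene Psmc2 at 1 of its starts (chr5:21785025-21785324, plus strand) and the chaperone gene Psmd10 (chrX:140956662-140956961, minus strand) read as follows.
Psmd11: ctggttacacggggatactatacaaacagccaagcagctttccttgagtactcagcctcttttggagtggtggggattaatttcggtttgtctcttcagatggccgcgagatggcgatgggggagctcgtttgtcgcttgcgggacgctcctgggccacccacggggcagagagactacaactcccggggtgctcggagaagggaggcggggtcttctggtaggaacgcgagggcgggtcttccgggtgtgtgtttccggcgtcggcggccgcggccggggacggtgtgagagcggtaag
Psmc4: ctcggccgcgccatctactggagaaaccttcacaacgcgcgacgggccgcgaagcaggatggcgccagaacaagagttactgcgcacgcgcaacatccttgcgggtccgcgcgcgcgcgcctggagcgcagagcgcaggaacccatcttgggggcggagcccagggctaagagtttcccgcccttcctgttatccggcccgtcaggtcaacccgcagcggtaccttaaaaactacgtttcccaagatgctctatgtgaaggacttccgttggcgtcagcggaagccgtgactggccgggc
Psmc2: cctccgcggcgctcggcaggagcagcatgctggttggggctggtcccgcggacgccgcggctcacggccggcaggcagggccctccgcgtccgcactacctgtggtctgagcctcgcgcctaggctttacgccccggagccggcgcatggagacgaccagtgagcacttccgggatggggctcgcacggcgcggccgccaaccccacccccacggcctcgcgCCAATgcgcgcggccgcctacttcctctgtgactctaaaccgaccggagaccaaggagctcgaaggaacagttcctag
Psmd10: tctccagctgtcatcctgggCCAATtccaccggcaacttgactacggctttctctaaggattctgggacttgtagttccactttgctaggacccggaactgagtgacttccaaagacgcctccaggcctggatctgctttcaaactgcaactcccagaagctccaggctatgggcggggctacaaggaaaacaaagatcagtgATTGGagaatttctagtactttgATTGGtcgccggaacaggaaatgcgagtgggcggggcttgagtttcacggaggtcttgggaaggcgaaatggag

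Psmd10 held 3 CCAAT boxes, this start of Psmc2 held 1, and Psmc4 and Psmd11 held 0. The antioxidant response element bound by NRF1 and NRF2, searched as TGACNNNGC on both strands, was found in 0 of these 4 sequences. Of the 34 proteasome genes with a promoter sequence, 6 held that element (17.6%, with 14% of 27025 genes): Psmb5, Psmb6, Psmc6, Psmd9, Psmd12 and Psme4. A CCAAT box stood in 13 of the 34 (38.2%, with 41.1% of all genes). A match of letters is no measured binding.

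Psmd11, a scaffold subunit of the lid that is needed to put the particle together, gave the smallest adjusted p. Its log2 level was 2.66 and 3.19 on HFD and 3.71 and 3.87 on ND at 3 months, and 2.98 and 3.00 on HFD and 4.04 and 3.84 on ND at 9 months. All 4 HFD arrays lay below all 4 ND arrays. The gene fell by 0.90 ± 0.15 on the log2 scale (standard error, n = 4 against 4, limma with Benjamini-Hochberg adjusted p = 0.0093), which is 0.535 of the ND signal. Its fold changes at 3 months (-0.86 ± 0.23, adjusted p = 0.082) and 9 months (-0.95 ± 0.23, adjusted p = 0.057) did not pass by themselves.

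Psmc4, one of the ATPases that thread the substrate into the core, had log2 levels of 4.35 and 3.56 on HFD and 4.51 and 4.62 on ND at 3 months, and of 3.99 and 4.09 on HFD and 4.83 and 4.61 on ND at 9 months. The HFD arrays were all lower, and the HFD mice at 3 months lay far apart. It fell by 0.65 ± 0.19 over both durations (adjusted p = 0.047). The call was lost when any array but HFD 3 months replicate 1 was left out (fold changes of -0.81 to -0.50, adjusted p of 0.0258 to 0.141). It was also lost with normexp (-0.49, adjusted p = 0.065), with the authors' deposited table (-0.49, adjusted p = 0.055), with no filter on dim probes (adjusted p = 0.12) and with the replicate number as a block (adjusted p = 0.053).

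Psmc2, another ATPase of the ring, showed the least scatter. Its log2 levels were 5.83 and 5.85 on HFD and 6.22 and 6.27 on ND at 3 months, and 5.93 and 5.87 on HFD and 6.37 and 6.19 on ND at 9 months. The diets did not overlap. The log2 fold change was -0.39 ± 0.11 (adjusted p = 0.048), and a second probe of the gene gave -0.52. The adjusted p lay between 0.0474 and 0.166 when 1 array was left out, and of these 8 fits it passed only without HFD 9 months replicate 2. The size of the difference depended on the scaling: it was -0.24 with quantile normalization (adjusted p = 0.14), -0.093 with normexp (adjusted p = 0.53) and -0.089 with the authors' deposited table (adjusted p = 0.59). The call was also lost with no filter on dim probes (adjusted p = 0.17) and with the replicate block (adjusted p = 0.065). With normexp the genes called lower were Psmb4, Psmd7, Psmd11 and Psmd12, and with the authors' deposited table Psmd7, Psmd11 and Psmd12, so that Psmd11 alone was shared with the 3 named here.

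Psmd10 encodes gankyrin, an ankyrin-repeat chaperone that helps to assemble the ATPase ring and is also studied as an oncoprotein of the liver. It was the only gene of the 40 called higher on HFD. Log2 levels were 0.77 and 0.44 on HFD and 0.09 and 0.16 on ND at 3 months, and 0.58 and 0.50 on HFD and -0.02 and -0.30 on ND at 9 months. Every HFD array exceeded every ND array. The log2 fold change was 0.59 ± 0.14 (adjusted p = 0.026), a linear ratio of 1.51, and the second probe gave 0.75. The gene passed in 2 of the 8 fits that leave out 1 array (without HFD 3 months replicate 2 and without HFD 9 months replicate 2; fold changes of 0.52 to 0.68, adjusted p of 0.0285 to 0.0836 over the 8), and it did not pass with no filter on dim probes (adjusted p = 0.093). Psmd11, by contrast, passed in 8 of 8 (-1.02 to -0.81, adjusted p of 0.0101 to 0.0498).

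**Figure D2:**
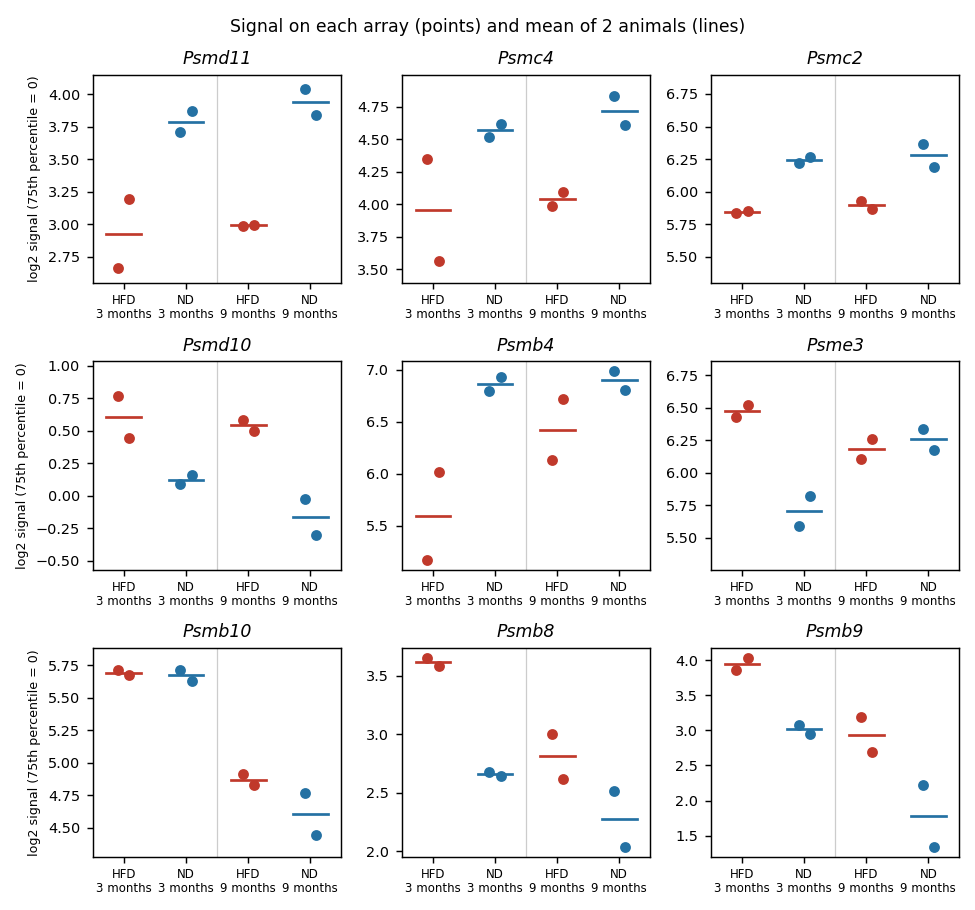
Log2 signal (75th percentile of the array at 0) of 9 genes on each array (points, red for HFD and blue for ND), with the mean of 2 mice (lines). Psmd11, Psmc4, Psmc2 and Psmb4 lie lower and Psmd10 higher on HFD at both durations, Psme3 differs by diet at 3 months, and Psmb10 lies lower at 9 than at 3 months on both diets. Of these 9 genes, those past the threshold in the comparison over both durations are Psmd11, Psmc4, Psmc2, Psmd10, Psmb8 and Psmb9.

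Among the alpha subunits 0 of 7 passed over both durations, beside 22.1% of all features, and their median log2 fold change was -0.01. Psma3 lay between 6.44 and 6.89 on HFD and between 6.61 and 6.87 on ND (log2 fold change -0.01 ± 0.13). Psma5 lay between 5.26 and 5.52 on HFD and between 5.24 and 5.53 on ND (-0.01 ± 0.12). The 95% confidence intervals of the ring reached from -0.57 for Psma7 to 0.72 for Psma6, so a log2 fold change of 1 in either direction lay outside the interval of each alpha subunit.

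The beta subunits also gave 0 calls of 7, beside 22.1% of all features, with a median log2 fold change of -0.18. Psmb5, the chymotrypsin-like site that proteasome inhibitors bind, lay between 7.64 and 7.99 on HFD and between 7.68 and 7.84 on ND (0.03 ± 0.13). Psmb6, the caspase-like site, lay between 6.99 and 7.48 on HFD and between 7.15 and 7.31 on ND (0.03 ± 0.14). Psmb7, the trypsin-like site, ranged from 3.40 to 4.41 on HFD and from 4.30 to 4.56 on ND (-0.36 ± 0.19, adjusted p = 0.20), and its lowest value was on HFD 9 months replicate 2.

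Psmb4, a structural beta subunit, was the member nearest to the threshold on its other side. Its log2 levels were 5.17 and 6.02 on HFD and 6.79 and 6.93 on ND at 3 months, and 6.13 and 6.71 on HFD and 6.99 and 6.80 on ND at 9 months. All HFD arrays were lower, and the HFD mice at 3 months lay further apart than the ND mice. The log2 fold change was -0.87 ± 0.27 (adjusted p = 0.054).

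The 6 ATPases had a median log2 fold change of -0.36, and 5 of the 6 lay below 0, beside 49.7% of all features. The sizes depended on the processing: under the alternative settings Psmc1 ranged from -1.55 to -0.03 and Psmc2 from -0.45 to -0.09. Besides Psmc2 and Psmc4, Psmc1 had 4 lower HFD arrays (6.55 to 6.86, against 6.96 to 7.21 on ND) and a log2 fold change of -0.34 ± 0.13 (adjusted p = 0.11). Psmc5 had the largest estimate of all 40 genes and the widest scatter: 1.89 and 4.49 on HFD and 4.80 and 4.80 on ND at 3 months, and 4.28 and 3.02 on HFD and 5.10 and 5.02 on ND at 9 months. Its log2 fold change of -1.51 ± 0.54 did not pass (adjusted p = 0.083). Psmc6 alone of the ATPases lay above 0 (0.31 ± 0.18, adjusted p = 0.23), and Psmc3 gave -0.20 ± 0.13 (adjusted p = 0.30).

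The base scaffolds did not pass, while 22.1% of all features did. Psmd1 lay between 5.88 and 6.08 on HFD and between 5.84 and 6.15 on ND (0.01 ± 0.12). Psmd2 was higher on all HFD arrays, at 5.58 to 5.99 against 5.36 to 5.55 on ND, with a log2 fold change of 0.26 ± 0.14 (adjusted p = 0.20). Psmd4, a ubiquitin receptor, gave -0.26 ± 0.13 (adjusted p = 0.17).

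In the lid, 7 of 8 genes lay below 0, beside 49.7% of all features. Of the 8, 1 passed, Psmd11, beside 22.1% of all features. The 7 include Psmd14 at -0.006. Psmd12, another lid scaffold, had log2 levels of 5.53 and 5.73 on HFD and 6.06 and 5.90 on ND at 3 months, and of 4.79 and 5.57 on HFD and 6.17 and 6.06 on ND at 9 months. It was lower on every HFD array (-0.64 ± 0.22, adjusted p = 0.069). A second probe of Psmd12 gave -0.21, with 0.17 at 3 months and -0.59 at 9 months, and its diets overlapped. Psmd6 was also lower on every HFD array, at 3.59 to 4.23 against 4.39 to 4.62 on ND (-0.48 ± 0.17, adjusted p = 0.086). Psmd14, the deubiquitinase, overlapped widely, at 1.29 to 2.59 on HFD and 1.56 to 2.30 on ND (-0.01 ± 0.20). The 4 others, Psmd3, Psmd7, Psmd8 and Psmd13, had log2 fold changes between -0.19 and 0.14.

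Among the activators, which open the gate of the core without the regulatory particle, 0 of 4 passed over both durations, beside 22.1% of all features. Psme1 and Psme2 form the interferon-inducible activator. Psme1 lay between 5.18 and 5.44 on HFD and between 4.83 and 5.28 on ND (0.21 ± 0.15). Psme2 ranged from 5.33 to 6.76 on HFD and from 5.77 to 6.56 on ND (0.07 ± 0.27). Psme4, the large nuclear activator linked to histone degradation, gave -0.44 ± 0.14 (adjusted p = 0.066), and its second probe gave 0.05. Psme1 was spotted 10 times on each array, and the standard deviation of these spots was 0.0847 to 0.176 on the HFD slide and 0.0333 to 0.0388 on the ND slide.

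**Figure D3:**
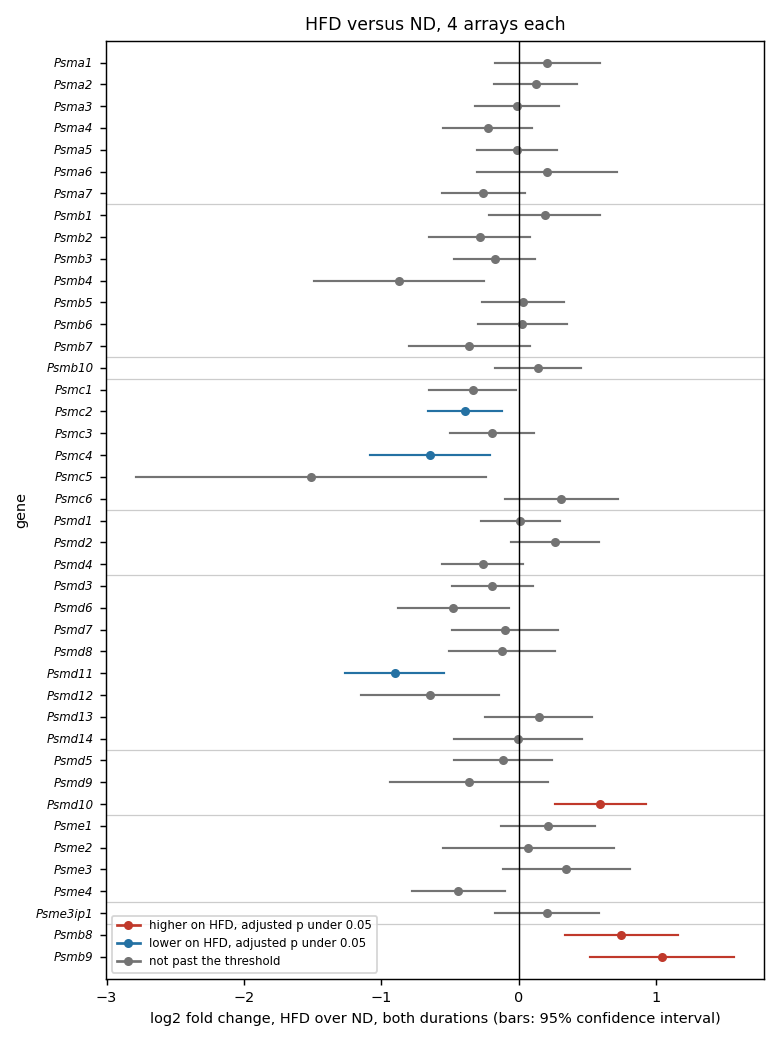
Log2 fold change of HFD over ND over both durations (points) with the 95% confidence interval (bars) for each gene, grouped from the alpha ring at the top to Psmb8 and Psmb9 at the bottom. Red and blue mark genes past an adjusted p of 0.05, which are Psmd10, Psmb8 and Psmb9 above 0 and Psmd11, Psmc4 and Psmc2 below it; Psmc5 has the widest interval.

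The core was set against the regulatory particle by the medians of their genes. Over both durations the median log2 fold change was -0.01 for the 14 core genes and -0.20 for the 17 regulatory genes, a difference of 0.18. The sign of the core median turned with the scaling, to 0.10 with quantile normalization, 0.11 with normexp and 0.11 with the authors' deposited table, where the regulatory median was -0.12, -0.040 and -0.031. At 3 months it was -0.09 for the core and -0.16 for the regulatory particle, a difference of 0.07, but both medians lay above 0 with quantile normalization (0.17 and 0.023), normexp (0.18 and 0.087) and the authors' deposited table (0.22 and 0.12). At 9 months the median was -0.06 for the core and -0.30 for the regulatory particle, a difference of 0.25. At 9 months 10 of 14 core genes and 15 of 17 regulatory genes lay below 0, beside 48.9% of all features. Of the 9 genes whose 4 HFD arrays all lay below the 4 ND arrays (22.5% of the 40, with 14% of all features), 2, Psmb4 and Psma7, belong to the core and 7 to the regulatory particle. The opposite order was seen in 2 genes, Psmd10 and Psmd2, against 11.5% of all features. Subunits of 1 complex are not replicates, so the difference of the particles carries no test.

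On single arrays, the core median minus the regulatory median (each gene taken against its own mean) was 0.05 and 0.17 on HFD and 0.04 and -0.06 on ND at 3 months. At 9 months it was 0.11 and -0.06 on HFD and -0.19 and -0.24 on ND. The pooled standard deviation within groups was 0.0831. Within each duration both HFD arrays lay above both ND arrays, by little at 3 months, and the ND mice at 9 months had the lowest values of the 8. Without HFD 9 months replicate 2 the difference of the particles was 0.17 over both durations and 0.35 at 9 months, and without ND 9 months replicate 2 it was 0.16 at 9 months. At 3 months it was 0.16 without HFD 3 months replicate 1.

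**Figure D4:**
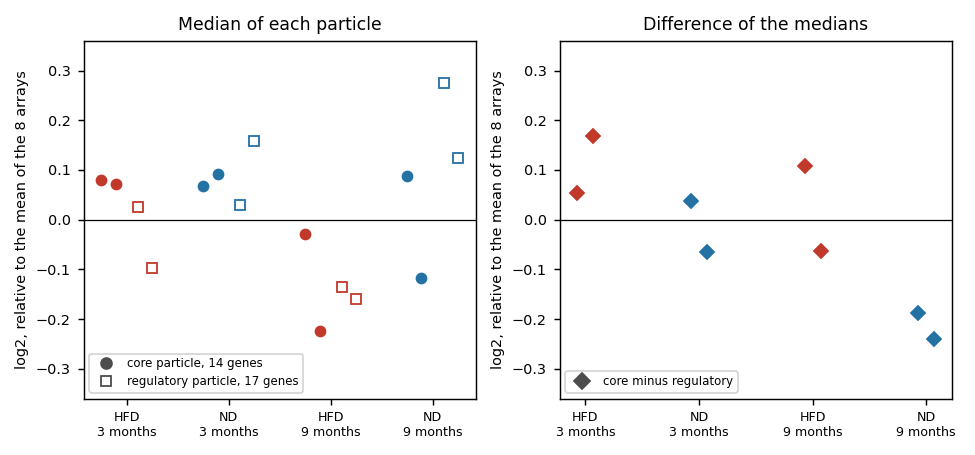
Left, median of the 14 core genes (filled circles) and the 17 regulatory genes (open squares) on each array, in log2 units relative to each gene's mean over the 8 arrays; right, the difference between these medians. Red is HFD and blue is ND; the regulatory medians of ND 9 months (0.28 and 0.12) stand above those of HFD 9 months (-0.14 and -0.16), and the difference is lowest on the ND arrays at 9 months.

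At 3 months alone, 0 of 40 genes passed in the HFD against ND comparison, while 5.18% of all features did. That share was 0% without either ND 3 months array, 2.67% without ND 9 months replicate 1, 10.2% without HFD 9 months replicate 1 and 9.16% without HFD 9 months replicate 2. An unadjusted p under 0.05 was reached by 4 genes (10%, with 26.3% of all features). Psme3, an activator of nuclear proteasomes, had the smallest p. Its log2 levels were 6.43 and 6.52 on HFD and 5.59 and 5.82 on ND at 3 months, and 6.11 and 6.26 on HFD and 6.34 and 6.18 on ND at 9 months. The diets stood apart at 3 months (log2 fold change 0.77 ± 0.18, adjusted p = 0.065) and overlapped at 9 months (-0.07 ± 0.18). Both HFD arrays also lay above both ND arrays at 3 months in 35.6% of all features. The other large estimates at 3 months were those of Psmc5 (-1.62 ± 0.83), Psmb4 (-1.27 ± 0.34, adjusted p = 0.081), Psmd11, Psmc4 and Psme4 (-0.51 ± 0.21).

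At 9 months, too, 0 of 40 genes passed, while 8.28% of all features did, and 8 genes (20%, with 28.7% of all features) had an unadjusted p under 0.05. The share of all features called was 2.28% and 0.999% without ND 3 months replicates 1 and 2, 3.61% and 1.86% without ND 9 months replicates 1 and 2, and 13.3% and 13.5% without HFD 9 months replicates 1 and 2. The median log2 fold change was -0.16, and 29 of 40 genes lay below 0 (72.5%, with 48.9%). After Psmd11, the estimates with the smallest p were those of Psmd10 (0.70 ± 0.20), Psmd6 (-0.73 ± 0.21), Psmd12 (-0.94 ± 0.28) and the chaperone gene Psmd9 (-0.81 ± 0.27), with adjusted p between 0.082 and 0.12. Psmd9 had log2 levels of 2.38 and 1.68 on HFD and 2.72 and 2.97 on ND at 9 months, and of 2.28 and 2.51 on HFD and 2.23 and 2.40 on ND at 3 months. One array could decide these values: the median was -0.016 without ND 9 months replicate 1 and -0.26 without ND 9 months replicate 2. Without HFD 3 months replicate 2, or without HFD 9 months replicate 2, 1 gene was called lower at 9 months, and without HFD 9 months replicate 1, 3 genes were.

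The test of the difference itself, HFD against ND at 9 months minus the same at 3 months, called 0 of 40 genes and 0% of all features. Without HFD 9 months replicate 1 it called 173 features (0.843%), and 0 proteasome genes. It gave 1 gene with an unadjusted p under 0.05 (7.62% of all features), Psme3 (-0.84 ± 0.26, adjusted p = 0.55). The comparisons at 3 and 9 months share no arrays but share both slides. Across the 40 genes their log2 fold changes had the same sign in 27 (67.5%, with 73.4% of all features), with Pearson's r of 0.71 across genes (0.68 across all features), where genes are not independent replicates.

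Time on the diet was compared next. Since all mice were purchased at 5 weeks of age, time on the diet and age cannot be told apart. Between 9 and 3 months, 0 of 40 genes passed on ND (1.04% of all features) and 0 of 40 on HFD (0.00992% of all features). An unadjusted p under 0.05 was reached by 2 genes on ND (15.9% of all features) and by 4 on HFD (15.5% of all features). Psmb10, the inducible trypsin-like subunit, gave the smallest p on both diets. Its log2 levels were 4.91 and 4.83 at 9 months and 5.71 and 5.67 at 3 months on HFD, and 4.77 and 4.45 at 9 months and 5.71 and 5.63 at 3 months on ND. Every array at 9 months lay below every array at 3 months. Within a diet, with 2 arrays against 2, this order was seen in 37.1% of all features on ND and 23.3% on HFD. The log2 fold change was -0.82 ± 0.18 on HFD (adjusted p = 0.17) and -1.06 ± 0.18 on ND (adjusted p = 0.063), and the diets overlapped (0.14 ± 0.13 for HFD over ND).

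With time on ND, 3 of 14 core genes and 15 of 17 regulatory genes had log2 fold changes above 0, among them all 6 ATPases and all 3 base genes, and 0 of these passed. Of all features, 57.3% lay below 0. The medians were -0.08 for the core and 0.15 for the regulatory particle, with -0.07 for all features. The direction of the core turned with the scaling: 10 of its 14 genes lay above 0 with quantile normalization or normexp, 8 with the other percentile and 11 with the authors' deposited table (medians of 0.056 to 0.091). Of the 17 regulatory genes, 15 or 16 lay above 0 under these settings. On HFD the medians were -0.19 for the core and -0.02 for the regulatory particle (0.057 with the other percentile). All 7 alpha subunits lay below 0, beside 27 of the 40 genes and 50.4% of all features. The count depends on the processing, since Psma5 ranged from -0.19 to 0.13 under the alternative settings. The core median was lowest on HFD 9 months replicate 2. Without that array the median of the 40 genes on HFD was -0.053 in place of -0.17. The core minus the regulatory median on HFD was 0.0041 without HFD 3 months replicate 2 and -0.30 without HFD 9 months replicate 1, in place of -0.17. Psmb7 (-0.66 ± 0.25) and Psmd14 (-0.82 ± 0.28) had low estimates next to that of Psmb10 on HFD, with adjusted p of 0.30 and 0.27, and Psmb4 had the largest positive one (0.83 ± 0.34).

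Psmb8 and Psmb9, which replace Psmb5 and Psmb6 under interferon, were both higher on HFD over both durations. Psmb8 had log2 levels of 3.66 and 3.58 on HFD and 2.68 and 2.65 on ND at 3 months, and of 3.00 and 2.62 on HFD and 2.52 and 2.03 on ND at 9 months, with a log2 fold change of 0.75 ± 0.18 (adjusted p = 0.025). Psmb9 had 3.86 and 4.03 on HFD and 3.08 and 2.95 on ND at 3 months, and 3.19 and 2.69 on HFD and 2.23 and 1.34 on ND at 9 months (1.04 ± 0.22, adjusted p = 0.019). Within each duration the HFD arrays lay above the ND arrays for both genes. With 2 arrays against 2, this order was also seen in 35.6% of all features at 3 months and 28.5% at 9 months. The adjusted p of Psmb8 ranged from 0.0155 to 0.0983 and that of Psmb9 from 0.0213 to 0.0721 when 1 array was left out, and they passed in 2 and 5 of these 8 fits. With no filter on dim probes neither passed (adjusted p = 0.075 for Psmb8 and 0.052 for Psmb9). The difference between their fold changes and those of Psmb5 and Psmb6 was not tested.

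The summed linear level of 10 macrophage and Kupffer cell markers was 106 to 132 on HFD and 66.5 to 80.1 on ND at 3 months, and 134 to 216 on HFD and 133 to 406 on ND at 9 months, and 0 of the 10 passed. Over both durations 7 of the 10 lay above 0, and 22.1% of all features passed. That of 8 T and NK cell markers was 37.4 to 64 on HFD and 167 to 231 on ND at 3 months, and 31.4 to 38.2 on HFD and 163 to 228 on ND at 9 months, but this sum is mostly the signal of Cd4 and most of the list went the other way. Over both durations 6 of the 8 lay above 0 (median 0.45, and 0.88 at 3 months), with Ccl5 called higher (1.17 ± 0.31, adjusted p = 0.037) and Cd4 (-2.62 ± 0.27, adjusted p = 0.0019) and Cd3e (-1.67 ± 0.39, adjusted p = 0.024) called lower. Cd3g, Cd8a, Gzmb and Klrk1 were well above background in no group. The part of these cells in the inducible subunits was not tested. Of 10 genes of antigen processing and interferon response, 3 were higher on HFD over both durations (beside 10.3% of all features), namely the transcription factor Irf1 (0.96 ± 0.19), the peptide transporter Tap2 (0.78 ± 0.14) and the peptidase Erap1 (0.71 ± 0.15), with adjusted p of 0.012 to 0.019. With 1 array left out, Irf1 and Tap2 passed in 7 of 8 fits and Erap1 in 3. Erap1 was also called higher at 9 months (0.94, beside 3.56% of all features called higher), and there it passed in 7 of 11 alternative settings.

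Of 16 other subunits, assembly factors and inhibitors, 3 were higher and 1 lower on HFD over both durations, beside 10.3% of all features higher and 11.8% lower. Adrm1, the ubiquitin receptor of the base that the symbol rule does not reach, had log2 levels of 4.48 and 4.40 on HFD and 5.20 and 5.24 on ND at 3 months, and of 3.97 and 4.40 on HFD and 5.41 and 5.38 on ND at 9 months. It fell by 1.00 ± 0.16 over both durations (adjusted p = 0.0071) and by 1.21 ± 0.20 at 9 months (adjusted p = 0.023), where 4.73% of all features were called lower. Left-out arrays did not end the first call in any of 8 fits, and the second held in 4 of 8. Uchl5, the deubiquitinase that docks on Adrm1, went the other way (0.61 ± 0.14, adjusted p = 0.022), as did Zfand5, a ubiquitin-binding protein that stimulates the proteasome (0.77 ± 0.11, adjusted p = 0.0057), and Psmg3, an assembly chaperone of the core (0.51 ± 0.14, adjusted p = 0.037). With 1 array left out, Zfand5 passed in 8 of 8 fits, Uchl5 in 3 and Psmg3 in 2. Zfand5 also passed at 9 months (0.85 ± 0.16, adjusted p = 0.031), where 3.56% of all features were called higher, but in 2 of 8 fits with 1 array left out. At 9 months its value was 0.31 with normexp (adjusted p = 0.23), 0.28 with the authors' deposited table (adjusted p = 0.25) and 0.44 with the mean of its probes (adjusted p = 0.17).

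Of 11 genes that control proteasome transcription, 4 were higher on HFD over both durations and 0 lower, beside 10.3% and 11.8% of all features. Nfe2l2 had log2 levels of 4.53 and 4.44 on HFD and 3.51 and 3.72 on ND at 3 months, and of 4.69 and 4.46 on HFD and 3.72 and 3.63 on ND at 9 months. Its arrays did not overlap (0.88 ± 0.12, adjusted p = 0.0047). Ngly1, the glycanase needed to activate NRF1, gave 0.82 ± 0.14 (adjusted p = 0.0089), the partner protein gene Maff 1.87 ± 0.52 (adjusted p = 0.041) and Nfe2l1 0.51 ± 0.15 (adjusted p = 0.049). With 1 array left out, Nfe2l2 passed in 8 of 8 fits, Ngly1 in 7, Maff in 2 and Nfe2l1 in 0 (adjusted p of 0.0504 to 0.170). Nfe2l1 was 0.24 with normexp (adjusted p = 0.16) and 0.22 with the authors' deposited table (adjusted p = 0.15), and it passed in 3 of 10 alternative settings. Ngly1 passed at 3 months (0.97 ± 0.18, adjusted p = 0.042), beside 1.51% of all features called higher, and Nfe2l2 (0.90 ± 0.18, adjusted p = 0.037) and Maff (3.10 ± 0.38, adjusted p = 0.011) at 9 months. With 1 array left out these held in 2, 1 and 7 of 8 fits, and Ngly1 at 3 months was 0.57 with normexp (adjusted p = 0.081) and 0.52 with the authors' deposited table (adjusted p = 0.085).

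Of 7 NRF2 targets outside the proteasome, 1 was higher over both durations (beside 10.3% of all features), the quinone reductase Nqo1 (0.83 ± 0.19, adjusted p = 0.021). At 9 months 1 was higher (beside 3.56%), the glutathione transferase Gsta1 (3.47 ± 0.73, adjusted p = 0.041). The log2 levels of Gsta1 were 5.38 and 3.60 on HFD and 0.17 and 1.87 on ND at 9 months. At 3 months they were 5.31 and 4.69 on HFD and 4.99 and 4.78 on ND, so the ND arrays at 9 months were the low ones. Nqo1 was 0.31 with normexp and 0.29 with the authors' deposited table (adjusted p = 0.21 in both), and passed in 4 of 8 fits with 1 array left out. Gsta1 passed in 1 of these 8. Of 23 genes of ubiquitin and its delivery, 1 was lower (beside 11.8% of all features), the conjugating enzyme Ube2k (-1.07 ± 0.22, adjusted p = 0.015). That call rests on its brightest probe: with the mean of its probes the value was -0.14 (adjusted p = 0.53). Ube2k was also called lower at 9 months (-1.32, beside 4.73% of all features called lower), and there it passed in 6 of 11 alternative settings. With the mean of its probes the value at 9 months was -0.20 (adjusted p = 0.60). Of 11 genes of degradation from the endoplasmic reticulum, 0 passed over both durations, beside 22.1% of all features. The largest estimates were those of Derl3 (1.64 ± 0.51, adjusted p = 0.058) and Edem1 (0.51 ± 0.19, adjusted p = 0.091).

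Probes of 1 gene did not always give the same value. Of 10 proteasome genes with 2 detected probes, 6 had both probes on the same side of 0 in the HFD against ND comparison, and 4 (Psma4, Psmb5, Psme2 and Psme4) had them on opposite sides. Psmc1 had the largest gap. Its brighter probe gave -0.34, and its other probe gave -2.76, with log2 levels of 0.87 and 3.35 on HFD and 5.20 and 5.30 on ND at 3 months, and of 1.63 and 4.48 on HFD and 5.44 and 5.45 on ND at 9 months. The HFD values of that probe were scattered, as those of Psmc5 were, while the ND values of both lay close together.

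**Figure D5:**
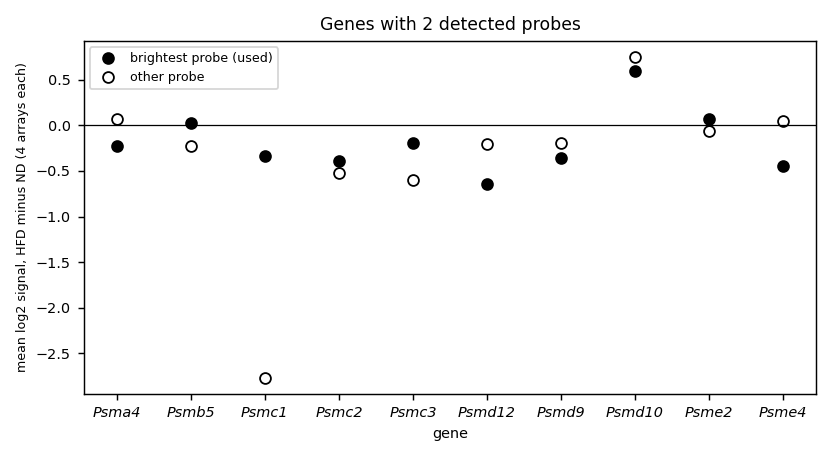
Mean log2 signal of HFD minus ND (4 arrays each) for both probes of the 10 genes with 2 detected probes; filled circles are the brightest probe, which the tests used, and open circles the other probe. Both probes of Psmc2 lie below 0 and both of Psmd10 above it, and the probes of Psmc1 lie furthest apart.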

How the data were processed

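Liver RNA of 8 mice was labelled with Cy3 and hybridised to 1-colour Agilent arrays, 1 per animal. The deposited processed signal is an intensity that, per the file headers, had its background subtracted and its spatial trend removed; it was made with Agilent Feature Extraction 10.7.1.1 per the submitters' processing notes, and its 75th percentile differs between arrays. Uncorrected intensity values (medians of spot and of local background) are deposited beside it. Deposited flags (well above background, outlier) are other values, 0 or 1 per spot. The authors' deposited value table holds log2 values. Tested here, these follow the order of the uncorrected median signal on each array (Spearman's rho = 1), with a column median of 7.14 everywhere; how they were scaled is not given in the sources used here.

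Control spots and spots flagged as outliers were left out. The log2 processed signal was set against the 75th percentile of its array (pseudocount 0), and spots of 1 probe were averaged. A probe was kept when at least a share of 0.5 of its spots passed the background flag in both mice of 1 group or more, and the brightest kept probe stood for its gene. This left 20165 features, 12885 with a symbol matched by transcript accession to RefSeq (assembly GRCm38.p6), which served for names only because the arrays were annotated on mm9. limma 3.58.1 in R 4.3.3 (with data.table, release 1.17.8, and jsonlite, release 2.0.0) fitted all 8 arrays by lmFit and eBayes, with a threshold of 0.05 on the Benjamini-Hochberg adjusted p over all features. One fit used the 4 group means (4 residual degrees of freedom, prior of 2.33) for HFD against ND at each duration, the difference between these, and 9 against 3 months on each diet. A second fit tested diet with duration as a covariate (5 and 2.40). Precision is limited by how few arrays there are. The code was tested on simulated data. Figures were drawn with Python 3.11.15 and matplotlib 3.10.9.

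The proteasome genes and the other lists were chosen with earlier results of these data known. All members are counted and shown in the figures, but not all have values in the text. Values are given for members past the threshold in a comparison. Further values were drawn from the 6 largest changes where fewer than 6 passed, and from a panel of 18 subunits with Psmb8 and Psmb9. Not each of these is given for every comparison. From the other lists come members past the threshold, or, over both durations, the 2 largest changes where none passed. Alternatives were quantile normalization, a percentile over spots well above background on all arrays, normexp with an offset of 50 on the median signals, the authors' table, other filters on dim probes, the mean of a gene's probes, other moderation, array weights, only the arrays compared, a replicate block, and each array left out. Probes were not tested for cross-hybridisation with pseudogenes, and no probe sequence was used here.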

Additional observations from a re-analysis of the deposited data

Results flagged for a closer look

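In each diet's 4 arrays over both durations, the gap of the lowest or highest array to its nearest neighbour was divided by the range, and a ratio above Dixon's 95% critical value marked a value as standing apart. These sets hold 2 durations each, and chance marks about 1 in 20 of them. Among the 40 proteasome genes this was so for 5 on HFD (12.5%) and 2 on ND (5%).

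On HFD 9 months replicate 2, Psma6 was lowest (3.81, with 4.56 next, ratio 0.892), as was Psmd8 (3.83, with 4.43 next, ratio 0.925). On HFD 9 months replicate 1, Psmc1 (6.55, with 6.81 next, ratio 0.848) and Psme2 (5.33, with 6.54 next, ratio 0.849) were lowest. Psmd2 was highest on HFD 3 months replicate 1 (5.99, with 5.64 next, ratio 0.842). On ND 9 months replicate 2, Psma7 (6.04, with 6.13 next, ratio 0.871) and Psmb1 (4.62, with 4.82 next, ratio 0.856) were lowest.

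Of 38 other genes, 5 had such a ratio on HFD and 0 on ND. These were Adrm1, lowest on HFD 9 months replicate 1 (ratio 0.837), Derl1 and Edem1, lowest on HFD 9 months replicate 2 (0.859 and 0.844), Ecpas, highest on that array (0.861), and Psmg3, highest on HFD 3 months replicate 1 (0.867). Of the 78 genes, 0 passed the test of the difference between durations.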

How the results depend on the processing

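Under the alternative settings, 0 results turned to a call in the opposite direction; a sign change was counted only for values whose 95% interval left out 0 or that were called. Of 3873 values of single genes under the alternatives, 3624 kept their side of the threshold, 174 lost it and 75 gained it. Most of these values belong to results not called in the main fit, which had no call to lose. The 3624 therefore do not measure how stable the calls were, and all 174 losses fell on results called in the main fit. Over both durations, Nfe2l1 passed in 3 of 10 alternative settings (0.24 with normexp) and Psmd11 in 10 of 10. The cause of the shifts below was not tested, apart from those of arrays left out, which hold fewer samples.

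Over both durations, the number of proteasome genes called higher (1) was 2 with normexp and 2 with the authors' table, and 0 with no filter on dim probes, which tests 37084 features. The number called lower (3) was 1 with no filter, 5 with trend and robust moderation and 6 with array weights. The median (-0.11) was -0.031 with quantile normalization, 0.031 with normexp and 0.032 with the authors' table. At 3 months 1 gene was called higher with quantile normalization, normexp, the authors' table, trend and robust moderation or array weights, and 2 lower with array weights; the median (-0.06) was 0.12 with quantile normalization, 0.17 with normexp and 0.21 with the authors' table, so its direction depends on the scaling. At 9 months 1 was called higher with normexp or the authors' table, and the number called lower was 2 with normexp, 3 with the authors' table and 1 with probes above background on all arrays or with trend and robust moderation. The median of the difference between durations (-0.10) was -0.24 with quantile normalization, -0.17 with the other percentile, -0.21 with normexp and -0.27 with the authors' table. For 9 against 3 months on ND, the median (0.00) was 0.16, 0.14, 0.17 and 0.20 under those settings, and 1 gene was called lower with probes above background on all arrays, trend and robust moderation or array weights. On HFD the median (-0.17) was -0.10 with the other percentile and -0.076 with normexp, and the core minus the regulatory particle (-0.17) was -0.085 with the authors' table. The other percentile moved the median of all features on ND by more than 0.1, to 0.07, where the share of higher calls was 59.5% in place of 42.6%.

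With 1 array left out, over both durations 0 to 1 gene was called higher and 1 to 3 lower, the median was -0.14 to -0.048 and the core minus the regulatory particle 0.16 to 0.23. At 3 months 0 to 1 was called higher and 0 to 2 lower (median -0.084 to -0.018, particles 0.047 to 0.16), and at 9 months 0 higher and 0 to 3 lower (-0.26 to -0.016, 0.16 to 0.35). The difference between durations called 0 (-0.22 to 0.018, 0.09 to 0.22). On ND 0 were called (-0.081 to 0.094, -0.30 to -0.22), and on HFD 0 higher and 0 to 1 lower (-0.24 to -0.053, -0.30 to 0.0041).

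The replicate numbers did not pair the mice: correlations of deviations between groups were -0.0181 to 0.137 over 6 pairs of groups. With the replicate number as a block, 1 gene was called higher and 1 lower over both durations, and calls of proteasome genes in the other comparisons stayed at 0; adjusted p was 0.065 for Psmc2 and 0.053 for Psmc4. Among all features, calls at 3 months (1045) were 68 without the filter on dim probes, 3972 under array weights and 2780 with only the arrays compared; at 9 months (1670) they were 274, 276 and 0; over both durations (4453) they were 2386 with no filter. With 1 array left out they were 0 to 2104, 222 to 2860 and 1522 to 5792, and 0 to 173 for the difference between durations. The slide could not be used as a block, since it equals diet, and the row equals duration, so these were not run; a fit of only the arrays compared does not apply to the difference between durations or to both durations.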
